A study of Mus musculus with 16 samples.

Results

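The genes described here encode nuclear subunits of the 5 complexes of oxidative phosphorylation in the mouse olfactory mucosa. They were taken by symbol (Nduf, Sdh, Uqcr, Cox4 to Cox8 and Atp5 genes, without pseudogenes), which gave 84 of the 19505 genes measured, each read by 1 probe set. Complex I had 35 of them, complex II 4, complex III 8, complex IV 20 and complex V 17. The number for complex IV includes Ndufa4 and Ndufa4l2, which were first named as complex I genes, and Cox7a2l, a factor that joins complexes into supercomplexes.

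Complexes I and II pass electrons from NADH and succinate to ubiquinone, complex III hands them to cytochrome c and complex IV to oxygen. Complexes I, III and IV pump protons across the inner mitochondrial membrane, and complex V lets them return while it makes ATP. Several complex IV subunits exist as a form found in most tissues and a form found mainly in heart and muscle, testis or lung. Olfactory sensory neurons spend ATP on ion pumping and on the turnover of the cyclic AMP cascade that follows odorant binding.

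The 16 samples, each hybridised to a Clariom S mouse array, fall into 4 groups of 4: GFP+ cells of mice given cigarette smoke odour, GFP- cells of the same mice, GFP+ cells of mice given filtered air (vehicle) and GFP- cells of these. All were S100a5-tauGFP mice of both sexes, 7 to 12 weeks old, in which GFP follows S100a5, a gene for a calcium-binding protein that active olfactory neurons express more strongly. The 24 mice formed 8 pools of 3, each kept for 40 h in a chamber with air at 3.1 L per min, with odour or air pulses of 10 s every 20 min from 26 h on. The mucosa of each pool was sorted into both fractions, so each pool gave 1 GFP+ and 1 GFP- array, and the replicates are pools, not single mice. GFP- is not a fraction without neurons, since Omp, the mature olfactory neuron marker, lay between 18.1 and 18.3 on every array.

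S100a5 was 16.8 to 17.1 in smoke GFP+ arrays, 15.5 to 16.1 in smoke GFP- arrays, 16.4 to 16.5 in vehicle GFP+ arrays and 14.9 to 15.5 in vehicle GFP- arrays, on the log2 scale used for all values here. The median over all genes was 7.87 to 7.96 on GFP+ arrays and 8.19 to 8.29 on GFP- arrays. Markers of other cell types differed between the fractions as well. The mean of 12 immune markers, of which 10 were called lower in GFP+ cells of smoke pools and all 12 in vehicle pools, was 8.10 in smoke GFP+ and 13.0 in smoke GFP- cells, and 8.17 in vehicle GFP+ and 13.3 in vehicle GFP- cells. The mean of 12 sustentacular cell markers was 10.5, 11.2, 10.2 and 11.3 in smoke GFP+, smoke GFP-, vehicle GFP+ and vehicle GFP- cells. Of the 12, 5 were called lower and 1 higher in GFP+ cells of smoke pools, and 9 lower and 0 higher in vehicle pools. Single markers differed by -2.38 to 0.80 in smoke and by -3.01 to 0.47 in vehicle pools. The sustentacular mean ranged from 10.1 to 11.02 on single smoke GFP+ arrays and from 10.1 to 10.4 on vehicle GFP+ arrays. The mean of 13 mature neuron markers was 16.1, 15.8, 16.1 and 15.8. Of the 13, 4 were called higher in smoke and 6 in vehicle pools and 0 lower, with median differences of 0.22 and 0.31. The mean of 9 immature neuron markers was 12.5, 13.5, 12.5 and 13.5. Of the 9, 4 were lower in each exposure, and 0 and 2 higher in smoke and vehicle pools. The mean of 8 microvillar and ionocyte markers was 6.66, 9.32, 6.43 and 9.42, and all 8 were lower in both exposures. In sorted bulk cells such as these, fewer cells of a type and less RNA per cell cannot be told apart.

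The promoter windows of 4 members are printed as examples. Uqcr11, called higher in GFP+ cells of smoke pools alone, and Ndufa9, called higher in both exposures, carry a motif of a factor known to act on respiratory genes. Cox7a1 and Cox6b2 are tissue forms called in opposite directions in both exposures. The choice of windows thus does not show that motifs go with being higher in GFP+ cells. Each window runs from 250 bases before to 50 bases after the start of the gene, on the strand of the gene, 5′ to 3′, with motif matches in capitals (RefSeq, GRCm38.p6).
Uqcr11 (chr10:80406772-80407071, minus strand): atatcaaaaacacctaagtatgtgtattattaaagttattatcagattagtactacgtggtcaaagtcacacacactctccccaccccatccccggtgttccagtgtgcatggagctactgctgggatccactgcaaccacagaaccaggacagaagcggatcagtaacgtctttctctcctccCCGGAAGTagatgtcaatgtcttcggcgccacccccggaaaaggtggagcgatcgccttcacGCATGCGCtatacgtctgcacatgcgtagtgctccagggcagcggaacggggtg
Ndufa9 (chr6:126849095-126849394, minus strand): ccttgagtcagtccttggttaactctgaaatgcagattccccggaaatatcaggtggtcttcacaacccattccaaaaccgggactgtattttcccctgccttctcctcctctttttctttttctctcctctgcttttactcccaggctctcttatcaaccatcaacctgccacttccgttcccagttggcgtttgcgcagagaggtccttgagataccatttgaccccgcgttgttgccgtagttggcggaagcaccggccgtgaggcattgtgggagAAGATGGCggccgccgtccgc
Cox7a1 (chr7:30183921-30184220, plus strand): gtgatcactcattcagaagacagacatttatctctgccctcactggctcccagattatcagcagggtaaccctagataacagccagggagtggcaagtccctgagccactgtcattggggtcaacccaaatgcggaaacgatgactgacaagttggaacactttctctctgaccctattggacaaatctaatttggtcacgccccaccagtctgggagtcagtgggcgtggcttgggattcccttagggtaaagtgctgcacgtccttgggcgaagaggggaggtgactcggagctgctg
Cox6b2 (chr7:4753045-4753344, minus strand): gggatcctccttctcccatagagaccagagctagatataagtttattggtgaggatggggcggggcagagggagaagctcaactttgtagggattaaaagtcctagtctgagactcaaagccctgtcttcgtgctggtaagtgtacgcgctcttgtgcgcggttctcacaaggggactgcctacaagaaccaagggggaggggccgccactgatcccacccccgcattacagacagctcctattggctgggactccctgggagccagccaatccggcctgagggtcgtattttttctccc

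The capitals in Uqcr11 are the core of the GABP (ETS) motif, CCGGAAGT, and the core of the NRF1 motif, GCATGCGC, and those in Ndufa9 are the core of the YY1 motif, AAGATGGC. These 3 letter strings and the ERR string TCAAGGTCA, none of which contains another, were searched on both strands in the windows of the 69 members that matched by gene ID and of 27025 genes in all. The NRF1 core was in 10 members, 14.5% of them, against 3.05% of all genes, and the YY1 core also in 10, 14.5%, against 3.19%. By complex the YY1 core was in 7 of 32 members of complex I with a window, in 3 of 15 of complex V and in none of the others. The GABP core was in 5 members (7.25%, against 4.31% of all genes) and the ERR string in 2 (2.90%, against 0.466%). The windows of Cox7a1 and Cox6b2 held none of the 4. Nor did those of Ndufv1 and Ndufv3, which were called higher in GFP+ cells in both exposures, as Ndufa9 was. For Ndufs1 and Uqcrc2, also called higher in both, there was no window. A match of letters is a description of the window and not a binding site.

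Most members were bright and a few were at the floor of the array. The floor was set at the mean of the 95th percentile of 319 vomeronasal receptor genes, which the main olfactory mucosa should hardly express, and lay at 6.57, 6.26, 6.46 and 6.19 in smoke GFP+, smoke GFP-, vehicle GFP+ and vehicle GFP- cells. Only 3 members lay at or below it in all 4 groups: Cox4i2, the lung form of subunit 4, Cox7b2, a testis form of subunit 7b, and Ndufa4l2, the relative of Ndufa4. Cox6b2, a testis form of subunit 6b, and Cox8b, the heart and muscle form of subunit 8, did so in the GFP+ groups alone. The other 79 exceeded the floor in every group. At the other end, 4 members exceeded 16 on all arrays and 6 on some arrays, which is past what a 16-bit scanner can record in log2 units, so the deposited values had been rescaled.

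The level of each complex in each group was taken as the mean over its members on each array. Complex I averaged 12.78 ± 0.20 in smoke GFP+, 12.49 ± 0.18 in smoke GFP-, 12.74 ± 0.12 in vehicle GFP+ and 12.50 ± 0.12 in vehicle GFP- cells (SD, n = 4 each, as for the next complexes). Complex II averaged 13.15 ± 0.14, 12.83 ± 0.24, 13.07 ± 0.05 and 12.78 ± 0.07 in the same groups. Complex III averaged 12.87 ± 0.21, 12.58 ± 0.21, 12.81 ± 0.12 and 12.62 ± 0.11. In complex IV the 4 groups lay within each other's spread, at 11.23 ± 0.12, 11.18 ± 0.14, 11.17 ± 0.10 and 11.23 ± 0.10. The complex IV mean includes the members at the floor, among them Cox6b2 and Cox8b, which lay there in the GFP+ groups alone. Complex V averaged 14.24 ± 0.21, 14.06 ± 0.19, 14.18 ± 0.10 and 14.07 ± 0.12. These means order the groups within a complex, and the complexes cannot be ranked by them because different probe sets are not on one scale.

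**Figure D1:**
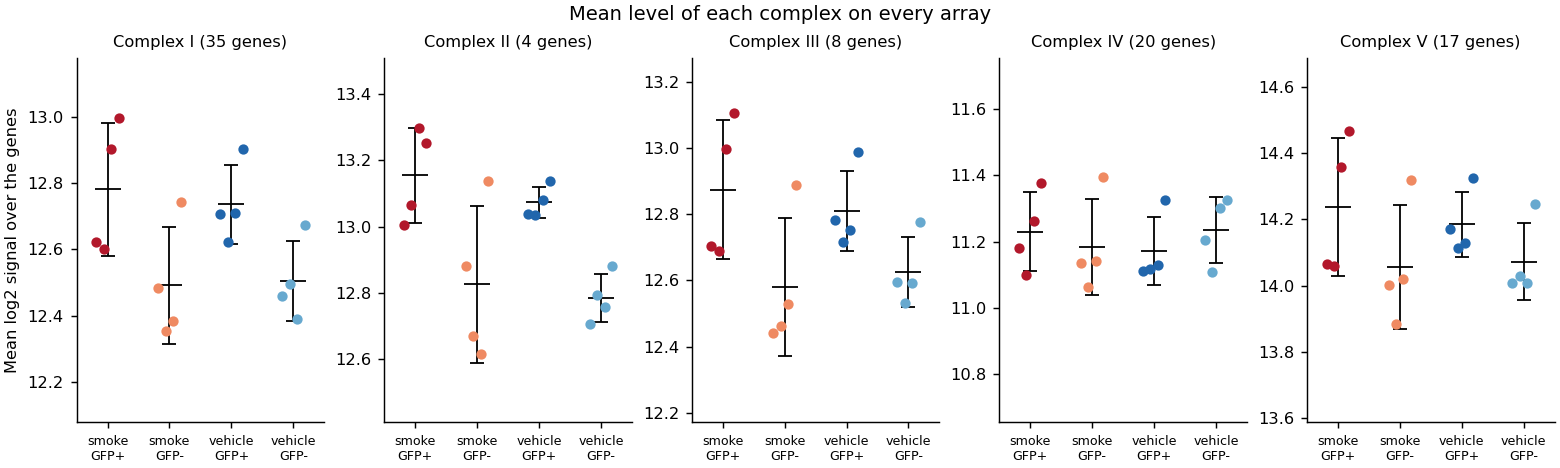
Mean log2 signal over the genes of each complex on every array (points, replicates 1 to 4 from left to right within a group), with the group mean and SD (bars). The GFP+ mean of complex I was 12.78 in smoke and 12.74 in vehicle pools, and replicate 4 was the highest array in 19 of the 20 combinations of complex and group.

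The arrays of replicate 4 stood apart for these genes in all 4 groups. In 19 of the 20 combinations of complex and group the replicate 4 array had the highest mean, and complex II in smoke GFP+ cells was the exception, with replicate 3 highest. Complex I was 12.62, 12.60, 12.90 and 13.00 in smoke GFP+ replicates 1 to 4, and 12.48, 12.35, 12.38 and 12.74 in smoke GFP- replicates. It was 12.71, 12.62, 12.71 and 12.90 in vehicle GFP+ replicates and 12.46, 12.50, 12.39 and 12.67 in vehicle GFP- replicates. Of the 84 members, 56 were highest on the replicate 4 array in smoke GFP+, 79 in smoke GFP-, 66 in vehicle GFP+ and 64 in vehicle GFP- cells. The share of all genes highest on that array was 23.7%, 30.5%, 25.7% and 25.6% in these groups. Over the 3366 genes with a mean above 12 it was 25.5%, 39.0%, 26.6% and 25.6%. Over the 4 groups the members were highest there in 78.9% of cases, the 76 mitochondrial ribosome proteins in 48.4%, and 63 cytosolic ribosome proteins, a list taken by symbol after the members' values were seen, in 70.2%. By group 51, 19, 53 and 54 of these 63 were, so in smoke GFP- cells they did not share the pattern of the members. Other lists varied, such as 8 carrier and uncoupling genes at 62.5%, 12 sustentacular markers at 58.3% and 9 immature neuron markers at 19.4%. What sets replicate 4 apart was not tested.

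The first comparison asked whether smoke odour changed these genes in the GFP+ cells. No member passed the threshold, an adjusted p of at most 0.05 by limma with Benjamini-Hochberg adjustment over all genes, in either direction. Of all genes, 0.103% were called higher and 0.00513% lower in smoke GFP+ cells. The median difference (smoke minus vehicle) was 0.06 over the members and -0.00 over all genes, and 63 of 84 members lay above 0, while 48.9% of all genes did. By complex the medians were 0.04 in I, 0.12 in II, 0.07 in III, 0.04 in IV and 0.07 in V. The number above 0 moved with single arrays. It was 39 without smoke GFP+ replicate 4, with a median of -0.00, and 73 without vehicle GFP+ replicate 4. Without all 4 replicate 4 arrays it was 60, with a median of 0.05.

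The 95% intervals of all 84 differences lay within 1 log2 unit of 0, and 74 lay within 0.5. Their bounds ran from -0.67 to 0.72. A difference of 1 log2 unit between smoke and vehicle GFP+ cells thus lay outside the interval of every member, while smaller differences of single members remain within them.

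Cox7a1, the heart and muscle form of subunit 7a of complex IV, was the 1 member with an unadjusted p under 0.05. It was 9.10, 8.72, 8.88 and 9.12 in smoke GFP+ arrays and 8.49, 8.72, 8.52 and 8.44 in vehicle GFP+ arrays. All smoke arrays but replicate 2, which equalled the highest vehicle array to 2 decimals, were above every vehicle array. The difference was 0.41 (SE 0.14, 95% interval 0.10 to 0.72), with an adjusted p of 0.864 by limma. Its common partner Cox7a2 differed by 0.18 with groups that overlapped.

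Other members with the smallest p by complex were Ndufs1, a core iron-sulphur subunit of complex I, at 0.16, Sdhb, the iron-sulphur subunit of complex II, at 0.16, Uqcrq, a small subunit of complex III, at 0.10, and Atp5e, the epsilon subunit of complex V, at -0.25. Ndufv3, an accessory subunit of complex I, differed by -0.21. None passed the test (adjusted p = 0.999 for each, limma). Atp5a1, the alpha subunit of complex V, named here after its values were seen, was the 1 member whose smoke GFP+ arrays (16.93, 17.01, 17.04 and 16.97) all lay above its vehicle GFP+ arrays (16.86, 16.86, 16.89 and 16.89), and no member lay below on all of them. The shares of all genes without overlap were 1.66% and 1.34% in these directions, and the difference of Atp5a1 was 0.11 (SE 0.08).

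The same comparison in GFP- cells also called no member, against 0.0154% of all genes higher and 0.113% lower, and no member had an unadjusted p under 0.05. No member had groups without overlap either, against 1.43% of all genes higher and 1.3% lower in this sense. The median was -0.02 over the members and 0.01 over all genes, with 35 of 84 above 0. The medians by complex were -0.00, 0.03, -0.03, -0.04 and -0.01 for I to V, and 16 of the 20 complex IV members lay below 0. Without replicate 4 of the smoke GFP- arrays 13 of 84 lay above 0, and without vehicle GFP- replicate 4 52 did, so the side on which most members lay depended on single arrays. The smallest p were those of Atp5k, a small membrane subunit of complex V, at -0.34 (SE 0.17), and Ndufb3, an accessory subunit of complex I, at 0.29 (SE 0.14), both with an adjusted p of 0.868. Cox6a2, the heart and muscle form of subunit 6a, followed at -0.28 and Uqcr11, a small subunit of complex III, at -0.25. Ndufa5, an accessory subunit of complex I, differed by 0.22 and Sdhd, a membrane anchor of complex II, by 0.08. The intervals of 66 members lay within 0.5 of 0.

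**Figure D2:**
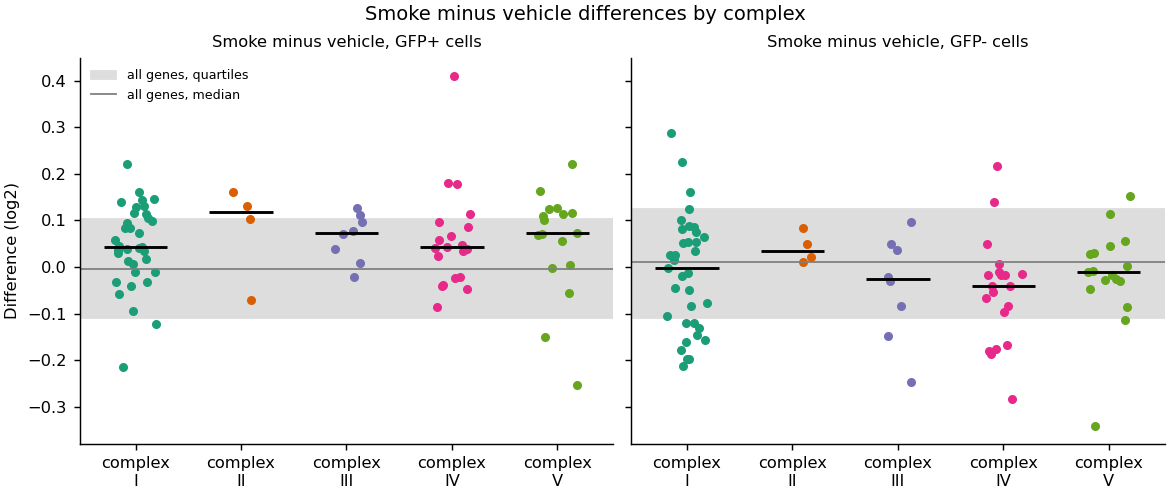
Smoke minus vehicle differences (log2) of the 84 genes by complex in GFP+ cells (left) and GFP- cells (right), each point a gene, with black bars for the median of a complex and grey for all genes. The medians run from 0.04 to 0.12 in GFP+ cells and from -0.04 to 0.03 in GFP- cells, and the highest point on the left is Cox7a1 at 0.41.

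Whether smoke odour altered the difference between the fractions was tested as the ratio of fractions, (GFP+ over GFP-) in smoke pools over the same in vehicle pools. No member passed, against 0.169% of all genes higher and 0.00513% lower, and none had an unadjusted p under 0.05. The median was 0.08 over the members, with 59 of 84 above 0, and -0.01 over all genes. It was 0.0093 without smoke GFP+ replicate 4, with 44 of 84 above 0, and 0.17 without smoke GFP- replicate 4, with 74 above 0. Cox7a1 had the smallest p, with a difference of 0.42 (SE 0.20) and an adjusted p of 0.860 by limma. Cox7a2l followed at 0.35, Ndufb6, an accessory subunit of complex I, was 0.43, and Uqcr11 was 0.36. On the other side were Ndufv3 at -0.37, Ndufb3 at -0.30 and Atp5g1, a gene for subunit c of complex V, at -0.21, while Sdhb was 0.14. The intervals are wider here, reaching from -0.94 to 1.02, so the members' sort differences in smoke and in vehicle pools were not shown to differ and were not shown to be equal.

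The comparison of the fractions gave calls among the members in both exposures. In smoke pools 16 members (19.05%) were higher in GFP+ cells, against 18.3% of all genes, and 2 (2.38%) were lower, against 14.4%. In vehicle pools 12 (14.3%) were higher, against 24.2% of all genes, and 3 (3.57%) lower, against 15.4%. The share of members called higher was thus near that of all genes in smoke pools and under it in vehicle pools, and the share called lower was under it in both. Most members are bright, and many of all genes are dim. With dim genes left out, 19 of 75 members (25.3%) were higher in smoke pools, against 28.9% of the 10548 genes kept. In vehicle pools 14 (18.7%) were higher, against 38.4%. Groups without overlap were seen for 7 members higher and 1 lower in smoke pools (16.3% and 13.5% of all genes) and for 16 higher and 3 lower in vehicle pools (23.8% and 15.1% of all genes). The median difference (GFP+ minus GFP-) was 0.23 over the members and 0.15 over all genes in smoke pools, and 0.18 over the members and 0.17 over all genes in vehicle pools.

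Both fractions of a pool come from the same mice. With the pool as a block the members called higher in smoke pools became 28 (33.3%, against 18.5% of all genes), which include all 16 called without it, and 2 were lower (14.6% of all genes). In vehicle pools 12 were higher and 4 lower (25% and 15.6% of all genes). Of the 12 in vehicle pools, 9 were called without the block too. Cox7a1, Ndufb3 and Sdhc no longer passed (adjusted p = 0.0544, 0.0567 and 0.0598 by limma), while Atp5mpl, Cox5a and Uqcr11 did. The 12 members gained in smoke pools were Ndufa1, Ndufa11, Ndufb4, Ndufc1 and Ndufs5 of complex I, Uqcrfs1 of III, Cox5a and Cox7b of IV, and Atp5j, Atp5k, Atp5mpl and Atp5o of V. Within pools, 33 members (39.3%) were higher in the GFP+ array of all 8 pools, against 21.5% of all genes, and 4 were lower in all 8, against 14.7%. By complex the 33 were 16 of I, 2 of II, 3 of III, 6 of IV and 6 of V. The 4 that were lower in all 8 pools were Cox6b2, Cox6a2, Cox8b and Atp5g2.

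Leaving out all replicate 4 arrays left 21 members higher and 1 lower in smoke pools (16.4% and 13.3% of all genes), and 7 higher and 2 lower in vehicle pools (18.1% and 13.7% of all genes). The calls lost in this way were Cox8b in smoke pools (adjusted p = 0.182, limma) and, in vehicle pools, Ndufa9, Atp5g3, Sdhc, Cox6a2, Cox7a1, Ndufb3 and Ndufv1 (adjusted p = 0.0521, 0.0653, 0.0701, 0.0771, 0.0810, 0.0901 and 0.0916, limma). Their differences were then 0.31, 0.31, 0.37, -0.40, 0.41, 0.38 and 0.25 in vehicle pools. Single arrays moved the number in smoke pools in opposite ways, with 30 higher without smoke GFP- replicate 4 (19.03% of all genes) and 6 without smoke GFP+ replicate 4 (15.6%). Without smoke pools 2 and 4, the pools with more sustentacular signal, 3 were higher (7.74% of all genes), and without the replicate 1 pools 3 were higher in vehicle pools (17.4%). The direction counts rest on the scale as deposited. With each array centred on its own median the median of all genes moved to 0.47 in smoke and 0.51 in vehicle pools, and then 74 and 72 members (88.1% and 85.7%) were called higher, against 62.4% and 65.7% of all genes, with Cox6b2 alone lower in each. Every difference between fractions below is therefore read against the median of all genes, 0.15 in smoke and 0.17 in vehicle pools. In GFP+ cells the mean levels of the immune, sustentacular, immature neuron, globose basal and microvillar markers were lower, and that of the mature neuron markers was higher. These marker differences accompany all of the differences between fractions, and their part in them was not tested.

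**Figure D3:**
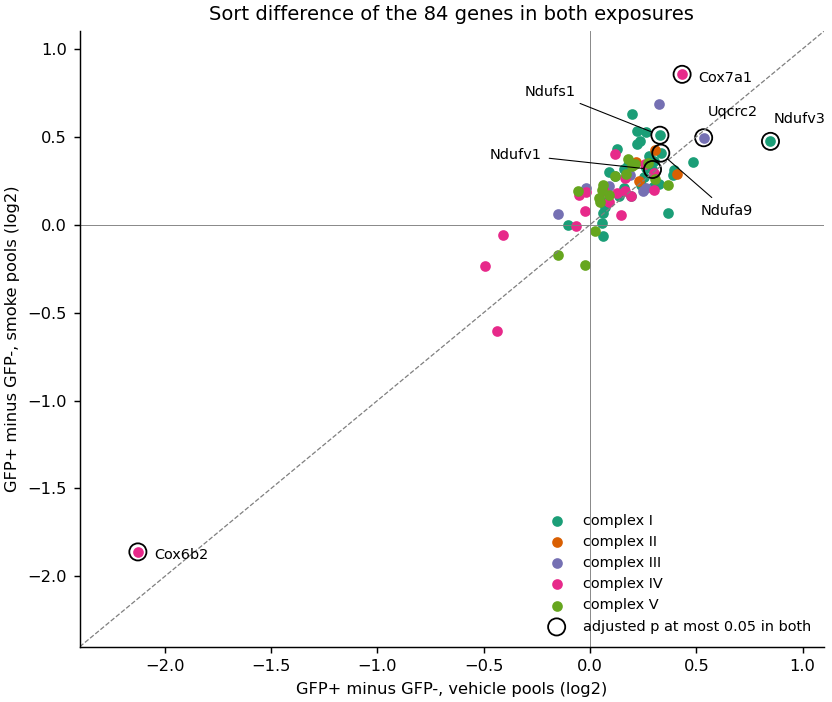
GFP+ minus GFP- difference (log2) of each of the 84 genes in smoke pools (vertical axis) and vehicle pools (horizontal axis), coloured by complex, with the dashed line marking equal values. Circles mark the 7 genes called in both exposures, of which Cox6b2 lies at -1.86 in smoke and -2.13 in vehicle pools and the other 6 lie above 0.

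Complex I, the set with most members, had 10 of 35 higher in GFP+ cells of smoke pools (28.6%, against 18.3% of all genes) and 8 of 35 in vehicle pools (22.9%, against 24.2%), and none lower. Its median difference was 0.31 in smoke and 0.22 in vehicle pools, and 34 of 35 members lay above 0 in each. Among its 6 measured core subunits, which carry the flavin and iron-sulphur centres and the quinone site, 4 were higher in smoke and 2 in vehicle pools. Of the 29 accessory subunits 6 were higher in each. The complex I counts come from the fit over all genes. With dim genes left out, 28.9% of all genes were higher in smoke and 38.4% in vehicle pools, and the complex I shares were not above these.

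Ndufs1, the largest core subunit, was 13.74, 13.94, 13.83 and 13.99 in smoke GFP+ arrays and 13.29, 13.34, 13.21 and 13.63 in smoke GFP- arrays. It was 13.79, 13.55, 13.74 and 13.79 in vehicle GFP+ arrays and 13.34, 13.41, 13.32 and 13.47 in vehicle GFP- arrays. The fractions did not overlap in either exposure. The difference was 0.51 (SE 0.11, adjusted p = 0.00177) in smoke and 0.33 (SE 0.11, adjusted p = 0.0240) in vehicle pools by limma.

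Ndufv1, the flavoprotein that takes electrons from NADH, was 14.53, 14.48, 14.63 and 14.65 in smoke GFP+ arrays and 14.29, 14.14, 14.13 and 14.48 in smoke GFP- arrays. It was 14.38, 14.41, 14.31 and 14.61 in vehicle GFP+ arrays and 14.21, 14.08, 14.05 and 14.20 in vehicle GFP- arrays. In vehicle pools the fractions were apart, and in smoke pools the lowest GFP+ array equalled the highest GFP- array to 2 decimals. The differences were 0.31 in smoke and 0.29 in vehicle pools (adjusted p = 0.0315 and 0.0362, limma). Ndufv2 and Ndufs7, core subunits with iron-sulphur centres, were higher in smoke pools, by 0.43 and 0.48, and differed by 0.13 and 0.23 in vehicle pools without passing. The core subunits Ndufs3 and Ndufs8 passed in neither.

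Ndufv3, a small accessory subunit next to the NADH site, had the largest rise of all members in vehicle pools. It was 10.35, 10.26, 10.66 and 10.78 in smoke GFP+ arrays and 10.16, 10.02, 9.57 and 10.41 in smoke GFP- arrays. It was 10.84, 10.46, 10.79 and 10.82 in vehicle GFP+ arrays and 9.89, 10.00, 9.78 and 9.85 in vehicle GFP- arrays. The fractions were far apart in vehicle pools and overlapped in smoke pools. The difference was 0.47 (SE 0.16, adjusted p = 0.0360) in smoke and 0.85 (SE 0.16, adjusted p = 6.28e-04) in vehicle pools by limma.

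Ndufa9, an accessory subunit near the quinone site and the owner of the YY1 core printed above, was 13.58, 13.65, 13.69 and 13.93 in smoke GFP+ arrays and 13.33, 13.30, 13.02 and 13.58 in smoke GFP- arrays. It was 13.56, 13.55, 13.49 and 13.74 in vehicle GFP+ arrays and 13.23, 13.19, 13.25 and 13.35 in vehicle GFP- arrays. The fractions were apart in vehicle pools and touched in smoke pools. The difference was 0.41 in smoke and 0.33 in vehicle pools (adjusted p = 0.0155 and 0.0354, limma). In vehicle pools the accessory subunits Ndufs5, Ndufa5, Ndufb8 and Ndufb3 were also higher, by 0.49, 0.40, 0.39 and 0.37. In smoke pools the others were Ndufb6, Ndufb2, Ndufb5 and Ndufb4b, by 0.63, 0.53, 0.53 and 0.46, all subunits of the membrane arm. Ndufb4b is a close copy of Ndufb4, so the signal of this pair may be shared.

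In complex II all 4 subunits lay above 0 in both exposures. Sdha, the flavoprotein that oxidises succinate, was higher by 0.42 in smoke pools and Sdhb by 0.35, and both were higher in the GFP+ array of all 8 pools. Sdha was 12.41, 12.48, 12.70 and 12.75 in smoke GFP+ arrays and 12.22, 12.10, 11.79 and 12.53 in smoke GFP- arrays, with an overlap at the replicate 4 GFP- array. In vehicle pools they differed by 0.30 and 0.21 without passing. Sdhc, a membrane anchor, differed by 0.29 in smoke pools without passing and was higher in vehicle pools by 0.41 (SE 0.15, adjusted p = 0.0345, limma). Sdhd differed by 0.25 in smoke and 0.23 in vehicle pools and passed in neither.

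In complex III, Uqcrc2, a core protein of the matrix side, was higher in both exposures. It was 12.27, 12.52, 12.47 and 12.59 in smoke GFP+ arrays and 12.05, 11.99, 11.66 and 12.16 in smoke GFP- arrays. It was 12.28, 12.31, 12.60 and 12.63 in vehicle GFP+ arrays and 11.86, 11.89, 11.77 and 12.15 in vehicle GFP- arrays. The fractions did not overlap in either exposure. The difference was 0.49 (SE 0.13, adjusted p = 0.00916) in smoke and 0.53 (SE 0.13, adjusted p = 0.00438) in vehicle pools by limma.

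Uqcr11, whose window above holds the NRF1 and GABP cores, was 7.95, 8.0, 8.47 and 8.59 in smoke GFP+ arrays and 7.36, 7.60, 7.43 and 7.87 in smoke GFP- arrays. It was 8.08, 7.98, 8.12 and 8.38 in vehicle GFP+ arrays and 7.74, 7.71, 7.76 and 8.04 in vehicle GFP- arrays. The fractions were apart in smoke pools and overlapped in vehicle pools. The difference was 0.68 (SE 0.16, adjusted p = 0.00344) in smoke and 0.33 (adjusted p = 0.115) in vehicle pools by limma. The catalytic iron-sulphur protein Uqcrfs1 and the core protein Uqcrc1 differed by 0.28 and 0.21 in smoke and 0.19 and 0.26 in vehicle pools and did not pass. Cyc1, the cytochrome c1 gene of the same complex, is left out by the symbol rule and differed by 0.20 in smoke pools without passing and was higher in vehicle pools by 0.43 (adjusted p = 0.0281, limma).

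Complex IV was the only complex with members called in both directions. Its median difference was 0.17 in smoke pools (0.089 to 0.24 with 1 array left out) and 0.11 in vehicle pools (-0.0024 without vehicle GFP+ replicate 4, and up to 0.15). Over the 12 members that are not tissue forms the median was 0.19 in smoke pools, with 10 above 0. In vehicle pools it was 0.12, with 8 above 0, where the medians of all genes were 0.15 in smoke and 0.17 in vehicle pools. In smoke pools 2 of 20 (10%) were higher and 2 (10%) lower, against 18.3% and 14.4% of all genes. In vehicle pools 1 (5%) was higher and 3 (15%) lower, against 24.2% and 15.4% of all genes. The share called lower was thus under that of all genes in smoke pools and near it in vehicle pools. Most of these calls fell on tissue forms. Of 8 tissue forms 1 was higher and 2 were lower in each exposure, and of their 7 common partners none passed in either. These counts are read against the same shares of all genes. The lower calls of Cox6b2 in both exposures and of Cox8b in smoke pools rest on GFP+ values under the floor. With the pool as a block 1 partner, Cox7b, was called higher in smoke pools (0.40, adjusted p = 0.0139, limma).

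Cox7a1, the form of heart and muscle, was 9.10, 8.72, 8.88 and 9.12 in smoke GFP+ arrays and 7.84, 8.32, 8.36 and 7.88 in smoke GFP- arrays. It was 8.49, 8.72, 8.52 and 8.44 in vehicle GFP+ arrays and 8.02, 8.15, 8.35 and 7.92 in vehicle GFP- arrays. The fractions did not overlap in either exposure. The difference was 0.86 (SE 0.14, adjusted p = 2.16e-04) in smoke and 0.43 (SE 0.14, adjusted p = 0.0254) in vehicle pools by limma. Its partner Cox7a2 differed by 0.17 and -0.05 and passed in neither. The mean of 6 muscle markers was 6.16 in smoke GFP+, 6.15 in smoke GFP-, 6.26 in vehicle GFP+ and 6.14 in vehicle GFP- cells, under the floor of each group. Of the 6, 1 was called higher and 0 lower in GFP+ cells of vehicle pools, and 0 were called in smoke pools. The markers differed by -0.24 to 0.28 in smoke and by -0.33 to 0.66 in vehicle pools.

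Cox6b2 was 4.58, 4.55, 4.55 and 4.65 in smoke GFP+ arrays and 6.33, 6.28, 7.03 and 6.14 in smoke GFP- arrays. It was 4.37, 4.33, 4.77 and 4.51 in vehicle GFP+ arrays and 7.15, 6.39, 6.38 and 6.58 in vehicle GFP- arrays. The fractions were more than 1 log2 unit apart on every array. The measured difference was -1.86 (SE 0.19, adjusted p = 8.88e-07) in smoke and -2.13 (SE 0.19, adjusted p = 1.53e-07) in vehicle pools by limma. The GFP+ values lie under the floor, and against the floor Cox6b2 was at least 1.12-fold lower in vehicle GFP+ cells, with no fold to give in smoke pools, where the GFP- mean of 6.44 lay under the floor of the GFP+ arrays. Its partner Cox6b1 differed by 0.19 in smoke and 0.17 in vehicle pools and passed in neither.

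Cox6a2 was 7.13, 7.25, 7.20 and 6.73 in vehicle GFP+ arrays and 7.72, 7.63, 7.44 and 7.51 in vehicle GFP- arrays. These groups were apart, with a difference of -0.50 (SE 0.15, adjusted p = 0.0152, limma), and the difference of -0.24 in smoke pools did not pass. Cox8b passed as lower in smoke pools (adjusted p = 0.0275, limma), with measured means of 5.73 in smoke GFP+ and 6.34 in smoke GFP- cells. Its groups overlapped and both means lay under the GFP+ floor of 6.57, so no fold is given. Cox4i2, Cox7b2, Cox8c, a testis form of subunit 8, and Ndufa4l2 passed in neither exposure, with differences of 0.19, 0.13, 0.20 and 0.16 in smoke and -0.02, 0.09, 0.30 and 0.19 in vehicle pools.

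The common partners Cox4i1, Cox6a1, Cox7b, Cox8a and Ndufa4 differed by 0.05 to 0.40 in smoke pools and 0.07 to 0.16 in vehicle pools without passing when the pool was no block. Cox7a2l was lower in vehicle pools by 0.41 (SE 0.14, adjusted p = 0.0291, limma). It was 12.35, 12.32, 12.28 and 12.63 in vehicle GFP+ arrays and 12.74, 12.71, 12.84 and 12.94 in vehicle GFP- arrays, which do not overlap. In smoke pools the difference was -0.06 and did not pass. With arrays centred on their medians, the differences of Cox6a2 and Cox7a2l in vehicle pools came to -0.15 and -0.07 and no longer passed. Cox5b, a subunit found in all tissues, was higher in smoke pools by 0.34 (adjusted p = 0.0355, limma) and differed by 0.26 in vehicle pools.

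**Figure D4:**
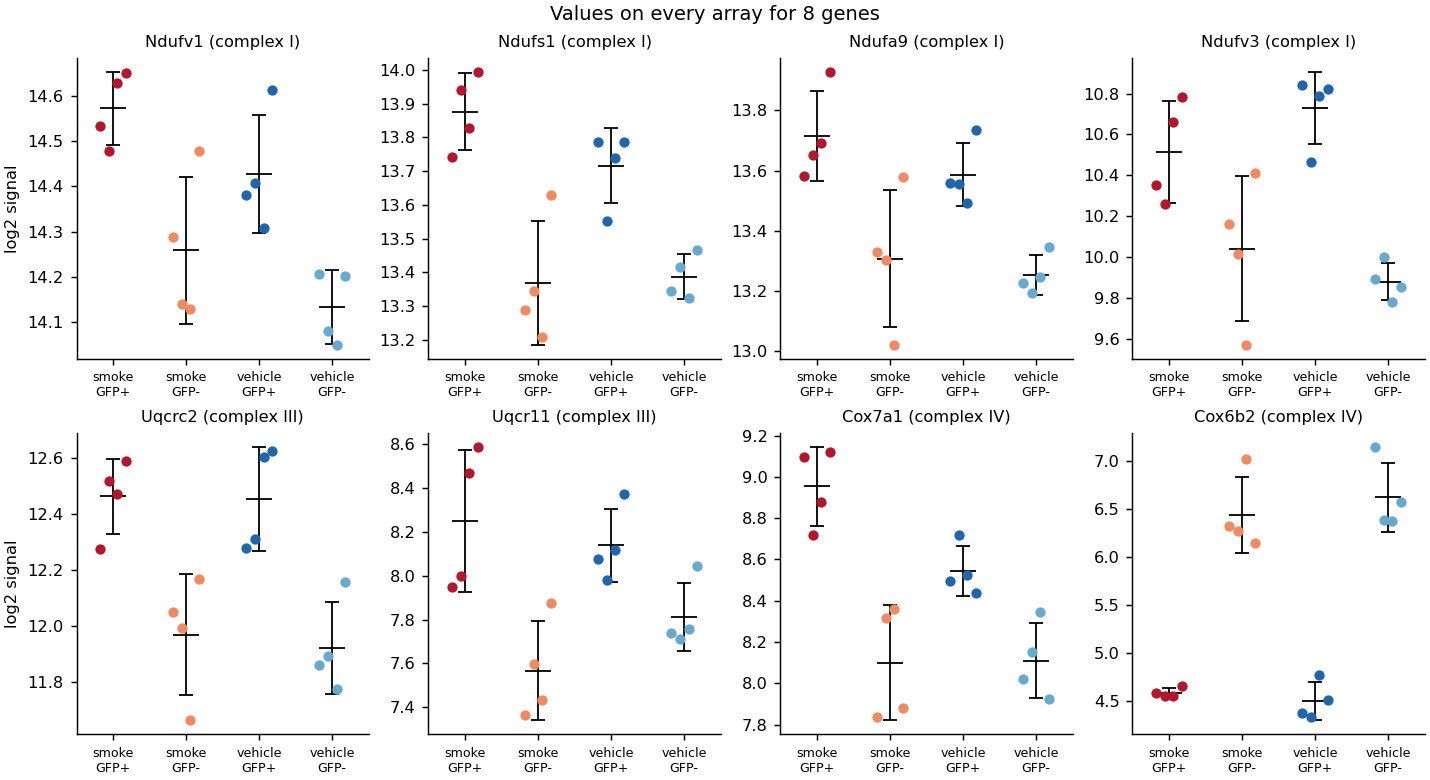
Values on every array (points, log2 signal, replicates 1 to 4 from left to right) for 8 genes named in the text, with group means and SD (bars). Cox6b2 lies between 4.33 and 4.77 on all GFP+ arrays and between 6.14 and 7.15 on all GFP- arrays, and the other 7 genes have higher GFP+ than GFP- means in both exposures.

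Complex V showed 1 call. Atp5g3, a gene for subunit c, which forms the rotating ring, was 14.54, 14.49, 14.44 and 14.58 in vehicle GFP+ arrays and 14.18, 14.24, 14.14 and 14.27 in vehicle GFP- arrays. The groups were apart, with a difference of 0.30 (SE 0.11, adjusted p = 0.0349, limma), and in smoke pools the difference was 0.26 (adjusted p = 0.0777). The genes Atp5g1 and Atp5g2 encode the same mature protein and did not follow it, with differences of -0.23 and -0.17 in smoke pools, and of -0.02 and -0.15 in vehicle pools, that did not pass. The smallest p in smoke pools was that of Atp5j, coupling factor 6, with a difference of 0.33 (adjusted p = 0.0720). With the pool as a block 4 members of complex V were called higher in smoke pools, Atp5j, Atp5k, Atp5mpl and Atp5o, against 0 without it. The complex median was 0.22 in smoke and 0.09 in vehicle pools.

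Across both exposures 6 of the 84 members were called higher (Ndufs1, Ndufv1, Ndufa9, Ndufv3, Uqcrc2 and Cox7a1) and 1, Cox6b2, was called lower. Of all genes 12.9% were called in both exposures in each direction. The 6 are 37.5% of the members called higher in smoke pools and 50% of those in vehicle pools. Over all genes these shares were 70.1% and 53.0%, so the overlap of the members was smaller in smoke pools and near that of all genes in vehicle pools. Without the replicate 4 pools 3 of them were called in both, Ndufs1, Ndufv3 and Uqcrc2, and without the replicate 1 pools Uqcrc2 alone was. Without smoke pools 2 and 4 they were Ndufs1 and Cox7a1. With the pool as a block 9 members were called higher in both, without Cox7a1 and with Ndufs5, Uqcr11, Cox5a and Atp5mpl, and Cox8b was called lower beside Cox6b2. The share of all genes called in both was taken for the main fit alone. Without that share for the alternatives, their counts are not read as results about the members.

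Genes that build or feed the complexes were taken from lists of pathway genes. Of 198 such genes 60 (30.3%) were higher in GFP+ cells of smoke pools and 5 (2.53%) lower, and 70 (35.4%) were higher and 5 (2.53%) lower in vehicle pools, and none passed in the comparisons of smoke with vehicle. Against these, the smoke pools had 18.3% of all genes higher and 14.4% lower, and the vehicle pools had 24.2% higher and 15.4% lower. With dim genes left out, 28.9% of all genes were higher in smoke and 38.4% in vehicle pools, a filter not applied to the lists. Among the 14 assembly factors of complex I, 7 were higher in smoke and 6 in vehicle pools, such as Ndufaf4 at 0.48 in smoke and Ndufaf7 at 0.55 in vehicle pools. Of the assembly factors of complex IV, 4 of 19 were higher in smoke and 6 in vehicle pools, such as Cox11, which delivers copper, at 0.55 in smoke pools and Cox15, which makes haem A, at 0.51 in vehicle pools. For complexes II and III the numbers were 2 of 4 and 3 of 6 in smoke and 3 of 4 and 3 of 6 in vehicle pools, with Lyrm7, which guides the iron-sulphur protein into complex III, at 0.43 and 0.76. For complex V they were 0 of 4 in smoke and 2 of 4 in vehicle pools. Of the 76 mitochondrial ribosome proteins 19 (25%) were higher in smoke and 23 (30.3%) in vehicle pools, against 18.3% and 24.2% of all genes, and of 12 ubiquinone synthesis genes 6 in each, with Coq8b at 0.54 and 0.46. Ckmt1, the mitochondrial creatine kinase, was higher by 0.63 in each exposure.

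Cycs, the cytochrome c gene, differed by 0.13 in smoke and 0.16 in vehicle pools and did not pass. Ndufab1, the acyl carrier subunit of complex I that the symbol rule leaves out, was higher in smoke pools by 0.37 (adjusted p = 0.0309, limma) and differed by 0.22 in vehicle pools. Of 13 regulators 3 were higher and 1 lower in smoke pools and 4 were higher in vehicle pools. Ppargc1a, the coactivator PGC-1alpha of mitochondrial genes, was higher by 0.44 in smoke and 0.98 in vehicle pools (adjusted p = 0.0340 and 6.35e-05, limma). Nrf1 and Gabpa, the factors of the motif cores in Uqcr11, differed by 0.01 and -0.17 in smoke and -0.06 and -0.01 in vehicle pools without passing, and Yy1 was lower by 0.33 in smoke pools and differed by -0.18 in vehicle pools.

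The citrate cycle and pyruvate list had 5 of 18 higher (27.8%) and 1 lower in smoke pools and 6 higher (33.3%) and 1 lower in vehicle pools. The lower gene was Idh2, the NADP-dependent isocitrate dehydrogenase, at -0.81 in smoke and -0.95 in vehicle pools. Of 15 glycolysis genes 6 (40%) were higher and 3 (20%) lower in each, where 14.4% of all genes in smoke and 15.4% in vehicle pools were lower. The lower genes were Ldha, the lactate dehydrogenase form that favours lactate, Hk2, an inducible hexokinase, and Pgk1, which makes ATP in glycolysis. Ldha averaged 9.42 in smoke GFP+ and 13.1 in smoke GFP- cells, and 9.26 in vehicle GFP+ and 13.2 in vehicle GFP- cells, a difference of -3.72 and -3.96 (adjusted p = 3.68e-09 and 1.44e-09, limma). Pgk1 differed by -0.68 in smoke and -0.93 in vehicle pools, and Hk2 lay under the floor in GFP+ cells, so no fold is given. Eno2, the neuronal enolase, was higher by 0.93 and 1.12. The immune markers given above were lower in GFP+ cells as well, and their part in these differences was not tested.

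**Figure D5:**
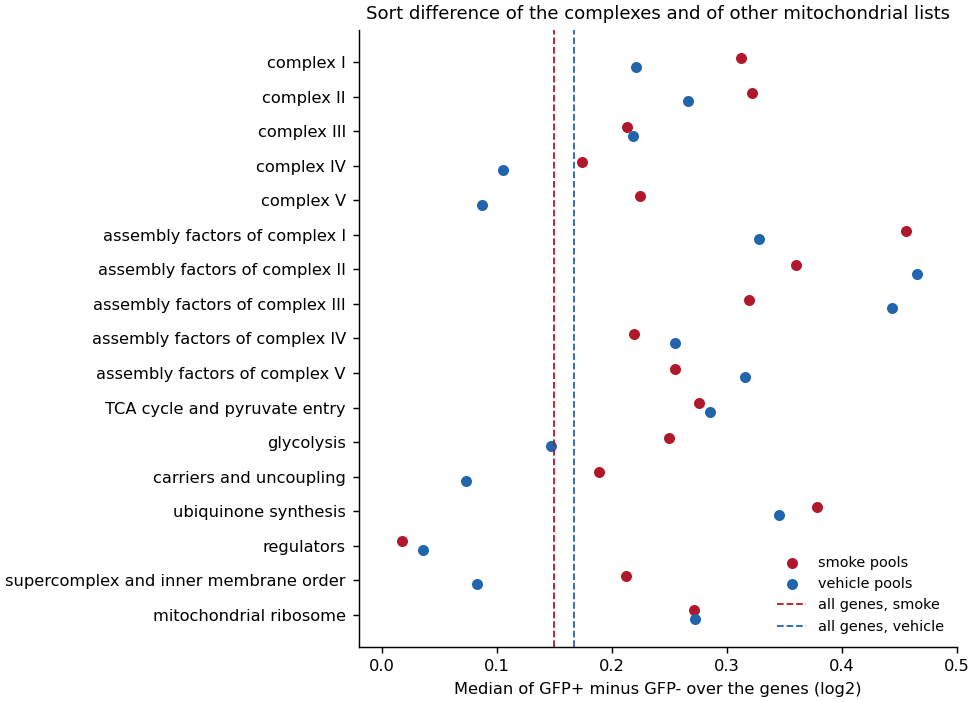
Median GFP+ minus GFP- difference (log2, horizontal axis) over the genes of each complex and of each pathway list, for smoke pools (red) and vehicle pools (blue), with dashed lines for all genes (0.15 in smoke and 0.17 in vehicle pools). Complex I lies at 0.31 and 0.22 and complex IV at 0.17 and 0.11 in smoke and vehicle pools.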

How the data were processed

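The authors' deposited values, log2 signals of 16 Clariom S arrays in one table, were used as given. Affymetrix Expression Console is named per the submitters' processing notes, with version and algorithm not given in the sources used here. Cigarette smoke is the odour in the labels, which were followed, while the design text also names bourgeonal.

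Of 28846 probe sets 19572 had 1 gene symbol, and the probe set with the highest mean per symbol left 19505 genes. limma 3.58.1 in R 4.3.3 (lmFit, eBayes) fitted all 16 arrays with 4 group means and 5 contrasts. Tests were two-sided, with Benjamini-Hochberg adjustment across all genes and a threshold of 0.05. Alternatives changed the normalization, the filter on dim genes, the probe set rule, the variance model, the block and the arrays left out. The fit was tested on simulated data. The members and lists were chosen with earlier results of these data known.

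In each contrast up to 10 rises and 10 falls among members past the threshold with groups that did not overlap were named, or the 2 with the smallest p. The smallest p of each complex, the tissue forms and their partners, complex II and subunit c were always named, and other members called are named as parts of a counted group. The fractions of a pool share their mice, per the labels, and their deviations from group means correlated with r of 0.22, 0.091, 0.093 and 0.13 in smoke and 0.21, 0.082, 0.045 and 0.20 in vehicle pools, so the pool served as a block in an alternative fit. Whether a replicate number also links smoke to vehicle pools is not stated in the labels. By number, smoke and vehicle arrays correlated with r of 0.14, 0.077, 0.15 and 0.20 in GFP+ and 0.18, -0.071, 0.10 and -0.084 in GFP- cells. Over the members alone r was -0.065, 0.049, -0.049 and 0.37 in GFP+ and 0.060, 0.17, -0.060 and 0.33 in GFP- cells. Smoke and vehicle arrays were not treated as pairs, and the replicate number served as a block in an alternative fit. Depth does not apply to arrays, and their number limits the precision. Plots used matplotlib 3.10.9 in Python 3.11.15.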

Additional observations from a re-analysis of the deposited data

Results flagged for a closer look

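Within groups of 4, single arrays lay far from the other 3 (a gap to the nearest of the others above Dixon's 95% value for the share of the range) for 12 values of 10 members and for 2 complex means. In all 168 groups were examined, and chance gives about 1 in 20, or 8.4. Replicate 4 held 11 of these 14 values. In smoke GFP- replicate 4, Atp5g1 was 13.98, Atp5k 7.65 and Uqcrq 12.37. In vehicle GFP- replicate 4, Atp5k was 7.88, Sdhd 13.59, Uqcr11 8.04 and the mean of complex V 14.25. In vehicle GFP+ replicate 4, Ndufa4 was 15.80, Sdhb 14.22 and the mean of complex IV 11.33. All these lay above the other 3 arrays. In smoke GFP+ replicate 4, Cox4i2 was 5.42, below the others. The rest were Cox8b at 6.10 in smoke GFP+ replicate 1, above the others, Cox8b at 5.76 in vehicle GFP- replicate 2 and Ndufv3 at 10.46 in vehicle GFP+ replicate 2, both below.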

How the results depend on the processing

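The counts of members called, 18 between fractions in smoke and 15 in vehicle pools, moved with the processing, and the cause was not tested. Centring arrays on their medians gave 75 and 73, with medians of complexes I to V of 0.63, 0.64, 0.53, 0.50 and 0.55 in smoke and 0.56, 0.61, 0.56, 0.45 and 0.43 in vehicle pools. The share of all genes called higher then moved from 18.3% to 62.4% in smoke and from 24.2% to 65.7% in vehicle pools. In smoke pools the replicate block gave 31, the pool as replicate block 30, the 8 arrays alone 7, with fewer arrays to estimate the spread, and leaving out smoke pools 2 and 4 gave 4. The members called higher were 34.5%, 33.3%, 7.14% and 3.57% in this order, against 19.7%, 18.5%, 13.5% and 7.74% of all genes. In vehicle pools leaving out the replicate 1 pools gave 4, and leaving out the replicate 4 pools, chosen after the data were seen, 9. There 3.57% and 8.33% of the members were called higher, against 17.4% and 18.1% of all genes. Leaving out 1 array gave 7 to 31 in smoke and 6 to 13 in vehicle pools. In smoke pools 7.14% to 35.7% of the members were then called higher, against 12.4% to 19.03% of all genes. In vehicle pools 4.76% to 13.1% of the members were, against 19.5% to 22.6% of all genes. The smoke arrays that moved the count most were GFP+ replicates 3 and 4 and GFP- replicates 2, 3 and 4, and the vehicle arrays were GFP+ replicates 1, 2 and 4 and GFP- replicates 1 and 3. No setting gave a call in the comparisons of smoke with vehicle or in the ratio. Cox6b2, Cox7a1, Ndufs1 and Uqcr11 were called in smoke pools, and Cox6b2, Ndufv3, Uqcrc2 and Ndufs5 in vehicle pools, under every alternative run that holds the gene. Differences without a call changed sign for Atp5g1 in the ratio (0.028 without smoke pools 2 and 4), for Sdhd in GFP- cells (-0.017 without smoke GFP- replicate 4, the lowest of a range up to 0.17 over left-out arrays, and -0.038 without smoke pools 2 and 4) and for Uqcrq in GFP+ cells (-0.013 without the replicate 4 pools). Signals near the floor limit Cox6b2 and Cox8b.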
